A study of Homo sapiens with 4 samples.

Results

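PROSER1 and 8 genes of the DNA methylation machinery were followed in A2780/SRSF3si2 cells, an ovarian cancer subline in which doxycycline (Doxy) switches on an siRNA against the splicing factor SRSF3. The 9 members, of 16640 genes measured with at least 2 probe sets, were PROSER1 (listed on the array under its older symbol C13orf23), TET1, TET2, TET3, OGT, DNMT1, DNMT3A, DNMT3B and UHRF1. They were represented by 251 of the 261273 probe sets that the array annotation pairs with a single gene symbol, 26 of them for PROSER1. PROSER1 was chosen by the differences of its probe sets between Doxy and No Doxy cells in these same arrays. Its values are therefore given below as a description, without a test. The other 8 genes were chosen for what they do, but with earlier results of these data known.

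The 4 Affymetrix Human Exon 1.0 ST arrays were hybridized with total RNA of the same subline, which carries the inducible SRSF3 siRNA2 in both groups. There were 2 No Doxy arrays, from cells without the drug, and 2 Doxy arrays, from cells given 0.1 µg/ml for 3 days. The sources do not say whether separate cultures were used for the arrays of a group, and p-values here measure only the spread between these arrays, and their small number limits the precision. The subline expressing a luciferase siRNA was not analysed here, so an effect of Doxy itself and of the SRSF3 siRNA cannot be told apart. All values are log2 signals. A probe set reads a short piece of a gene, the gene value is the mean over its probe sets, and a difference of -1 is a halving of the signal.

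DNA methylation is written by DNMT3A and DNMT3B, which methylate cytosines de novo, and is copied at each replication by DNMT1, which UHRF1 brings to freshly replicated, hemimethylated DNA. It is undone by TET1, TET2 and TET3, dioxygenases that oxidize methylcytosine, after which base excision repair can put back an unmodified cytosine. OGT, the enzyme that attaches O-linked N-acetylglucosamine to nuclear and cytosolic proteins, binds the TET proteins, and PROSER1, a proline- and serine-rich protein, is known as a partner of TET2 and OGT and of the histone methyltransferase complex that holds KMT2C, KMT2D and the demethylase UTX.

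SRSF3, the targeted gene, had gene values of 8.50 and 8.33 in the No Doxy arrays and 7.84 and 7.97 in the Doxy arrays. Both Doxy arrays were lower, by 0.51 on average, and the call failed after adjustment over all genes (limma, adjusted p = 0.129) but passed once each array was centred on its median (difference -0.67, adjusted p = 0.0376). The paper reports a larger suppression of SRSF3 in this subline by RT-PCR, qPCR and western blotting, which are measures unlike the array signal. The array medians were 5.20, 5.04, 5.18 and 5.38, and centring on them lowered every difference by 0.16. The control genes did not pass the test, with GAPDH at 0.10 (adjusted p = 0.800; -0.06 after centring) and ACTB at -0.03 (adjusted p = 0.960; -0.20 after centring). Of 5 measured markers of ovarian epithelial cancer 1 rose, where 5.67% of all genes were called higher. Their mean was 5.12 and 4.88 without Doxy and 5.50 and 5.52 with it. In both Doxy arrays 3 of the 5 were higher and 1 was lower, beside 30.5% and 21.8% of all genes. Their median difference was 0.28 (0.11 after centring) and the lowest was -0.38. EPCAM, an adhesion molecule of epithelia, read 4.19 and 4.16 without Doxy and 6.31 and 6.24 with it and rose by 2.10 (adjusted p = 0.00293). The mean signal over 4 measured leukocyte genes stayed between 2.93 and 3.11 and that over 6 endothelial genes between 3.35 and 3.48, with 0 genes called in either list. The 6 fibroblast genes averaged 6.84 to 7.01, and LUM, a matrix proteoglycan, rose by 0.79 (adjusted p = 0.0389, and 0.0566 with centred arrays), a call that was lost with any single array left out. Of these 6 genes 3 were higher and 3 lower in both Doxy arrays, beside the same 30.5% and 21.8% of all genes. COL3A1, a fibrillar collagen, was at -0.65 (limma, adjusted p = 0.0593, and 0.0120 with centred arrays, where it was the only one of the 6 called). The part of these markers in the results below was not tested.

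The difference of PROSER1 lay in 5 adjacent probe sets. The 5 together averaged 9.06 and 9.20 in the No Doxy arrays against 4.95 and 5.08 in the Doxy arrays, or 9.13 ± 0.10 against 5.02 ± 0.09 (SD, n = 2 arrays each), a signal 17.3-fold lower in the SRSF3-knockdown cells. The other 21 probe sets averaged 7.54 and 7.77 without Doxy and 8.08 and 7.92 with it, a difference of 0.35 in the opposite direction (0.19 after centring). The gene value mixed both stretches and read 7.83 and 8.04 against 7.48 and 7.37, a difference of -0.51.

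**Figure D1:**
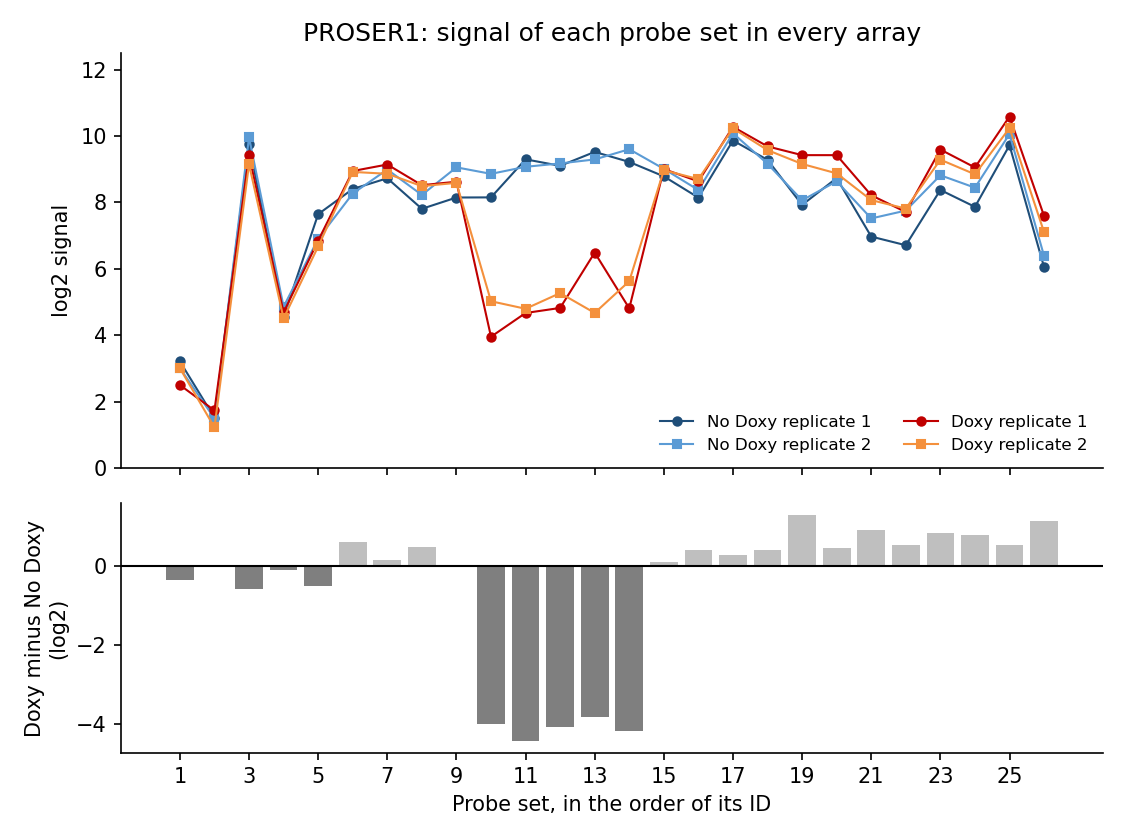
PROSER1 probe sets in the order of their IDs, with the log2 signal in each of the 4 arrays (above) and the difference of the group means, Doxy minus No Doxy (below). Probe sets 10 to 14 read 8.15 to 9.60 in the No Doxy arrays and 3.96 to 6.49 in the Doxy arrays, and the difference returned to 0.09 at probe set 15.

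In order of probe set ID, the first of the 5, 3510376, read 8.15 and 8.86 without Doxy and 3.96 and 5.03 with it. Probe set 3510377 read 9.30 and 9.07 against 4.67 and 4.80. Probe set 3510378 read 9.10 and 9.18 against 4.83 and 5.27. In each of these the higher Doxy array was more than 3 log2 units below the lower No Doxy array. Probe set 3510379 read 9.52 and 9.30 against 6.49 and 4.67 (SD 0.16 and 1.28), and its Doxy arrays lay farther apart than those of the other 4. Probe set 3510380 read 9.22 and 9.60 against 4.81 and 5.63. The groups did not overlap in any of the 5, and the differences were -4.02, -4.45, -4.09, -3.83 and -4.19 in this order, which correspond to signals 14.2- to 21.9-fold lower. Over all genes, 19.0% of probe sets were lower in both arrays with Doxy and 26.4% were higher in both.

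The edges of the stretch were sharp. Probe set 3510373, just before it, read 8.15 and 9.06 against 8.63 and 8.59, and its group means differed by 0.00. Probe set 3510382, just after it, read 8.79 and 9.01 against 9.01 and 8.97, a difference of 0.09. Both overlapped between the groups. The exon that each probe set reads was not analysed here, so the stretch is described only by its place in the order of IDs.

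The 9 probe sets before the stretch did not move together. Their mean differed by -0.04, 3 read lower in both arrays with Doxy, 2 were higher and 4 overlapped, with differences from -0.58 (3510365) to 0.60 (3510368). Between these lay 3510367 at -0.51, 3510366 at -0.11, 3510369 at 0.14 and 3510372 at 0.49. The first 2, 3510363 and 3510364, were dim in every array, at 2.50 to 3.22 and 1.23 to 1.74, with differences of -0.36 and -0.02.

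The 12 probe sets after the stretch were higher with Doxy. They averaged 8.37 ± 0.23 without Doxy and 9.0 ± 0.14 with it, a difference of 0.64 (0.48 after centring). None of the 12 was lower in both Doxy arrays, 10 were higher in both and 2 overlapped (3510382 and 3510392). Probe set 3510387 had the widest difference of the 12, with 7.93 and 8.07 against 9.43 and 9.16, or 1.30. Probe set 3510401, the last in the order of IDs, read 6.05 and 6.39 against 7.59 and 7.10, or 1.13. The others were smaller, with 0.41 at 3510383, 0.28 at 3510384, 0.41 at 3510386, 0.46 at 3510388, 0.90 at 3510391, 0.53 at 3510392, 0.84 at 3510394, 0.79 at 3510398 and 0.52 at 3510400. The signal of PROSER1 was thus lower in the middle of the gene's probe sets, higher toward the end of the ID order and of mixed direction at its start.

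Few genes of the array showed a block of this length. PROSER1 was chosen on its probe set differences in these arrays, so its place in these counts follows from that choice. The same holds for the ranking of single probe sets in the next paragraph. Both are given as a description and lend the block no support. Among 11263 genes with at least 10 probe sets, 306 had a probe set whose difference lay 2 or more below the gene's median difference, 22 had at least 2 such probe sets in a row, 7 had at least 3 and 2 had 5. The other gene with 5 was DCLK1, a microtubule-associated kinase, but there the gene as a whole was higher with Doxy (median difference 3.23) and the 5 probe sets stayed near their No Doxy level (mean difference -0.14). Runs of 3 or more in which every probe set was itself lower by 2 or more occurred in 3 genes. These were PROSER1, NEIL3, a DNA glycosylase (3 probe sets, mean difference -2.87), and RCOR3, a CoREST-family corepressor (3 probe sets, -2.56). NCOA6, a subunit of the same methyltransferase complex that PROSER1 binds, had a run of 3 averaging -2.06 within a gene whose median difference was 1.43. The remaining runs of 3 or more were in ERN1 (4 probe sets, averaging -0.15, gene median 2.28) and ACSS2 (3 probe sets, -0.56, gene median 2.87).

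Among the same 11263 genes, the probe sets farthest below the mean of their gene's others lay in ACSS2, PROSER1 and HCN2. ACSS2, an acetyl-CoA synthetase, had a probe set at -1.50 where the others averaged 2.71. In PROSER1 it was 3510377, at -4.45 where the others averaged -0.35, and in HCN2, an ion channel, a probe set at -3.94 where the others averaged 0.06. HCN2 had a single low probe set, whereas PROSER1 had 5.

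None of the 8 methylation genes changed by the test across all genes. At an adjusted p under 0.05, limma called 0 of the 8, against 7.37% of all genes, and 2 of them, TET2 and OGT, had an unadjusted p under 0.05, as did 23.1% of all genes. The methods' t-test on the same values also called 0 of the 8, and 0 of all genes after adjustment (2327 before it). Without overlap between the groups, OGT and DNMT3B were lower in both Doxy arrays and TET2 and TET3 higher, which is 2 and 2 of 8 against 21.8% and 30.5% of all genes, or 4 of 8 against 52.3% in either direction. The median difference of the 8 was -0.08, beside 0.03 over all genes. Levels were not ranked between genes, because probe sets differ in brightness.

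**Figure D2:**
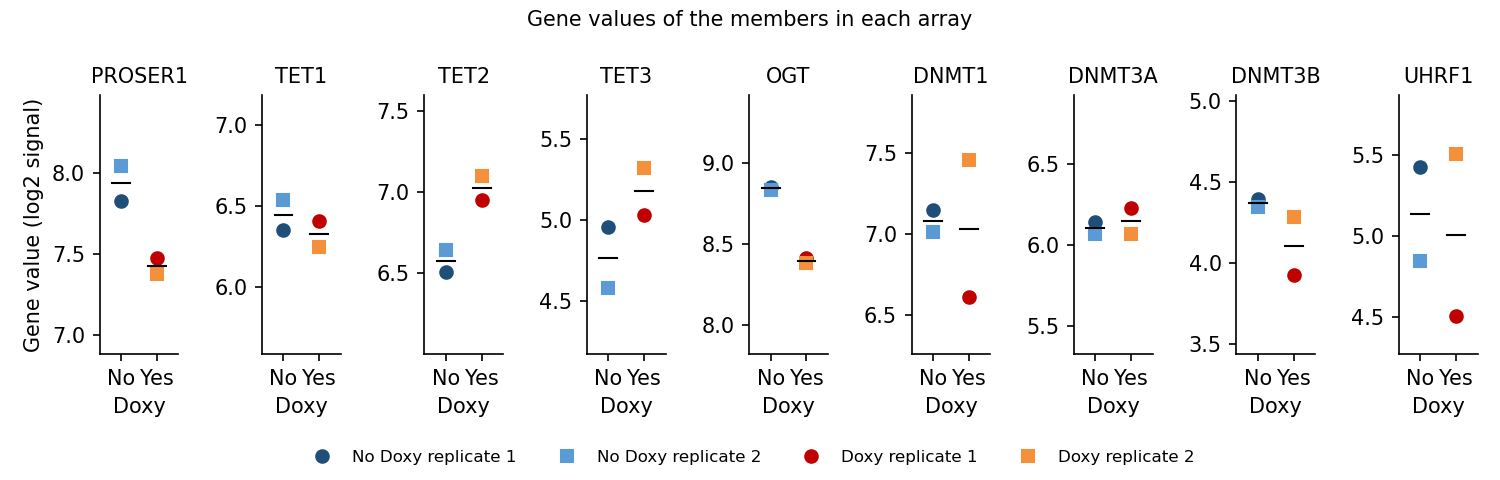
Gene values (mean log2 signal over a gene's probe sets) of the 9 members in each array, on the left without and on the right with Doxy, with a black line at each group mean; every panel spans 1.6 log2 units. OGT and PROSER1 were lower and TET2 and TET3 higher in both Doxy arrays, and the Doxy arrays of DNMT1 and UHRF1 lay 0.84 and 1.00 apart.

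Among the TET dioxygenases, TET1 read 6.35 and 6.54 without Doxy and 6.40 and 6.24 with it. The groups overlapped, and the difference was -0.12 (standard error 0.18, 95% interval -0.54 to 0.30, limma adjusted p = 0.769). TET2, the family member that PROSER1 is known to bind, read 6.51 and 6.64 against 6.95 and 7.10. Both Doxy arrays were higher, by 0.45 (SE 0.18, interval 0.04 to 0.86, limma adjusted p = 0.174), and by 0.29 after centring. Of the 14 probe sets of TET2, 9 were higher in both Doxy arrays, 1 was lower and 4 overlapped, beside 26.4%, 19.0% and 54.6% over all probe sets. TET3 read 4.96 and 4.58 against 5.03 and 5.32, a difference of 0.41 with an interval from -0.07 to 0.89 (limma, adjusted p = 0.291). Its Doxy arrays were the higher ones, Doxy 1 only narrowly, and 7 of its 9 probe sets overlapped (54.6% over all).

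OGT, the enzyme of O-GlcNAc addition, read 8.85 and 8.84 in the No Doxy arrays and 8.41 and 8.38 in the Doxy arrays. The arrays of each group lay within 0.03 of each other and the groups stood clearly apart, with a difference of -0.45 (SE 0.17, interval -0.84 to -0.06), or a signal 1.36-fold lower. The limma adjusted p was 0.160, and 0.0661 with centred arrays, where the difference was -0.61. The lower signal ran along the gene, since 31 of its 38 probe sets read lower in both arrays with Doxy, 1 was higher and 6 overlapped, against 19.0% and 26.4% lower and higher over all probe sets. Probe sets of a gene are not independent, so these counts describe how evenly the difference was spread and carry no test. The probe set farthest from the rest, 3981122, read 5.98 and 3.92 without Doxy and 5.47 and 5.85 with it, and its No Doxy arrays differed more from each other than the groups did.

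DNMT3A, a de novo methyltransferase, read 6.14 and 6.07 against 6.23 and 6.07. The groups overlapped, and the difference of 0.04 (interval -0.36 to 0.45, limma adjusted p = 0.923) turned to -0.12 when the arrays were centred. DNMT3B, its paralogue, read 4.40 and 4.35 against 3.93 and 4.28. Both Doxy arrays were lower, Doxy 2 only narrowly, and the difference of -0.27 had an interval from -0.71 to 0.17 (limma, adjusted p = 0.477). Of its 32 probe sets, 11 read lower in both arrays with Doxy, 4 were higher and 17 overlapped, beside 19.0%, 26.4% and 54.6% over all probe sets.

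The maintenance genes differed more between the Doxy arrays than between the groups. DNMT1, the maintenance methyltransferase, read 7.15 and 7.02 without Doxy, 6.62 in Doxy 1 and 7.46 in Doxy 2. UHRF1, which recognizes hemimethylated DNA, read 5.43 and 4.84 without Doxy, 4.50 in Doxy 1 and 5.50 in Doxy 2. In both genes Doxy 1 was the lowest and Doxy 2 the highest of the 4 arrays. The differences of the means were -0.05 for DNMT1 (interval -0.68 to 0.58, adjusted p = 0.946; limma) and -0.13 for UHRF1 (interval -0.91 to 0.64, adjusted p = 0.870), and 45 of 50 and 16 of 18 probe sets overlapped, beside 54.6% over all probe sets. The mean depended on the array kept: without Doxy 1 the differences were 0.37 and 0.37, and without Doxy 2 they were -0.47 and -0.63.

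Genes of the cell cycle were also lower in Doxy 1. The mean of 26 genes of DNA replication and S phase was 6.29 and 6.24 without Doxy, 5.39 in Doxy 1 and 6.25 in Doxy 2, and 24 of the 26 were below both No Doxy arrays in Doxy 1 against 11 in Doxy 2. The mean of 24 mitotic (G2/M) genes was 6.92 and 7.29 without Doxy, 5.92 in Doxy 1 and 7.18 in Doxy 2. Doxy 1 stood apart from the other 3 arrays in both lists. PCNA, the replication clamp that recruits DNMT1, read 7.53 and 6.95 without Doxy, 6.29 in Doxy 1 and 7.78 in Doxy 2. HELLS, a chromatin remodeller required for DNA methylation, read 6.21 and 6.26 without Doxy, 5.39 in Doxy 1 and 6.11 in Doxy 2. PCNA and HELLS were picked out of their list after their values were seen. Of the 8 DNA methyltransferase partners in that list, 5 were below both No Doxy arrays in Doxy 1 and 3 in Doxy 2. The share of all genes below both No Doxy arrays in a single Doxy array was not analysed here. These counts and those of the S phase list are therefore no measure of an excess. Whether cell cycle stage had a part in the values of DNMT1 and UHRF1 was not tested, and in bulk RNA fewer cells in a stage and less RNA per cell cannot be told apart.

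**Figure D3:**
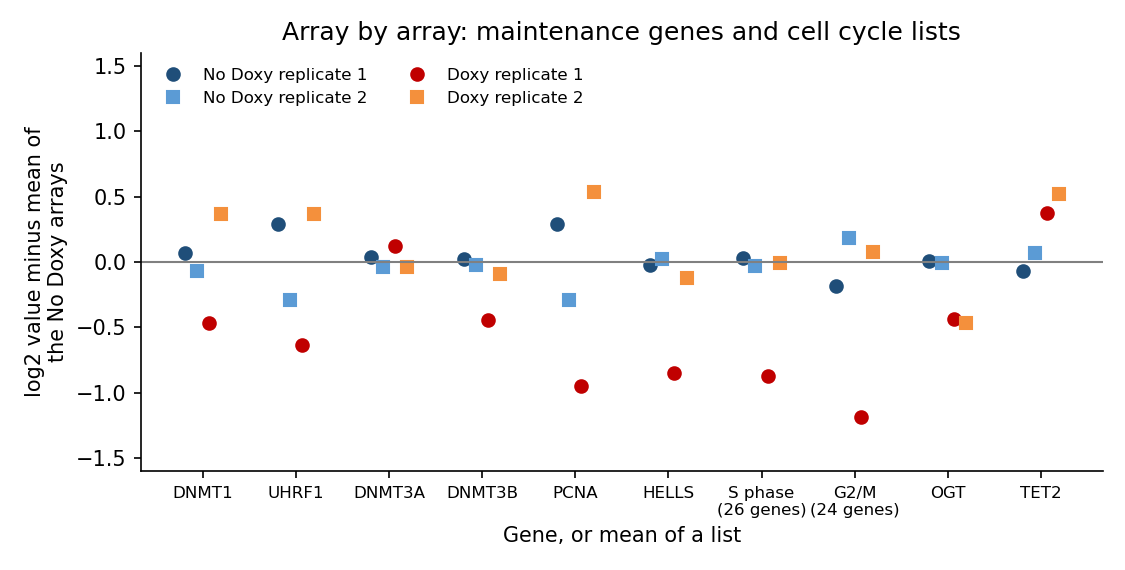
Log2 value of each array minus the mean of the No Doxy arrays, for 6 genes of maintenance and de novo methylation, the mean of 26 S phase and 24 G2/M genes, OGT and TET2. Doxy 1 was the lowest array for DNMT1, UHRF1, DNMT3B, PCNA, HELLS and both lists but the highest for DNMT3A, while both Doxy arrays of OGT lay below and both of TET2 above the No Doxy arrays.

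Promoters of DNMT1 and UHRF1 are shown because both genes gave the same order of the 4 arrays, with Doxy 1 lowest and Doxy 2 highest. E2F factors, which switch on S phase genes, recognize words of the form TTTNNCGC with C or G at each N. Both strands of the 300 bases from 250 before to 50 after each RefSeq start (GRCh38.p14) were searched, and 3.31% of 35116 windows of this length held such a word. The 9 members had 20 windows, and 3 of them matched: 1 of DNMT1 (chr19:10194904-10195203, minus strand) and 2 of UHRF1 (chr19:4909251-4909550 and chr19:4909894-4910193, plus strand). The word itself contains CG, and these windows held CG 30, 36 and 40 times, beside a median of 14 over all windows. The share over all windows was not matched for CG content, so it is no measure of an excess among the members. Each matched window is written 5′ to 3′ on the gene's strand, with the word in capitals.
DNMT1: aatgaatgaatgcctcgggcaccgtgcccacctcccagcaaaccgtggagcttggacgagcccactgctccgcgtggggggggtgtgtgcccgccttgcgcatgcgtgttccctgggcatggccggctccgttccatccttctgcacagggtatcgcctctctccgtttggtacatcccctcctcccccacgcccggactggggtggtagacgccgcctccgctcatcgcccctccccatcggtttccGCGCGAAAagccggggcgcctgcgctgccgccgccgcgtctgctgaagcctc
UHRF1, first window: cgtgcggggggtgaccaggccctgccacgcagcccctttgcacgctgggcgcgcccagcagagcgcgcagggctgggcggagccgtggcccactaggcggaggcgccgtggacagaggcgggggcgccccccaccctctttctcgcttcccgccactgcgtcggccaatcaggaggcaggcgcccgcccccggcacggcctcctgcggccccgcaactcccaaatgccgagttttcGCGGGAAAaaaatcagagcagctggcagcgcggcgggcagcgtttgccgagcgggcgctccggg
UHRF1, second window: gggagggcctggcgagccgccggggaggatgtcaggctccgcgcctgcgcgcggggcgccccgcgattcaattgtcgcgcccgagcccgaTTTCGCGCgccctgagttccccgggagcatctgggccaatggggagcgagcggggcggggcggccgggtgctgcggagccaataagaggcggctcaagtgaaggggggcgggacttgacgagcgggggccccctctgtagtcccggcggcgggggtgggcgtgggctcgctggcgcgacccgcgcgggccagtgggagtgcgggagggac
The word of DNMT1 starts at base 249 of its window, at the annotated start, that of the first UHRF1 window at base 237 and that of the second at base 91. DNMT1 and the first UHRF1 window hold it as the reverse complement, GCGNNAAA. No window of PROSER1, the TET genes, OGT, DNMT3A or DNMT3B held these letters, which says nothing about binding there, and a match is likewise a description and not a shown site.

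None of the 8 methylation genes was called for a shift of some probe sets against others. The diffSplice F test of limma, an interaction of probe set and condition, called 0 of the 8 against 2.46% of all genes, and 0 of the 8 had an unadjusted p under 0.05. The lowest adjusted p was that of OGT, 0.778. OGT was called (adjusted p = 0.00312) only when No Doxy 1 was left out, a setting that called 4013 genes in place of 409. Across the 225 probe sets of the 8 genes the differences ranged from -1.38 to 1.44, and 62 were lower and 25 higher in both Doxy arrays (19.0% and 26.4% over all probe sets). OGT alone gave 31 of the 62 and 1 of the 25. Probe sets of a gene are not independent, so the pooled counts do not describe the 8 genes in common.

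**Figure D4:**
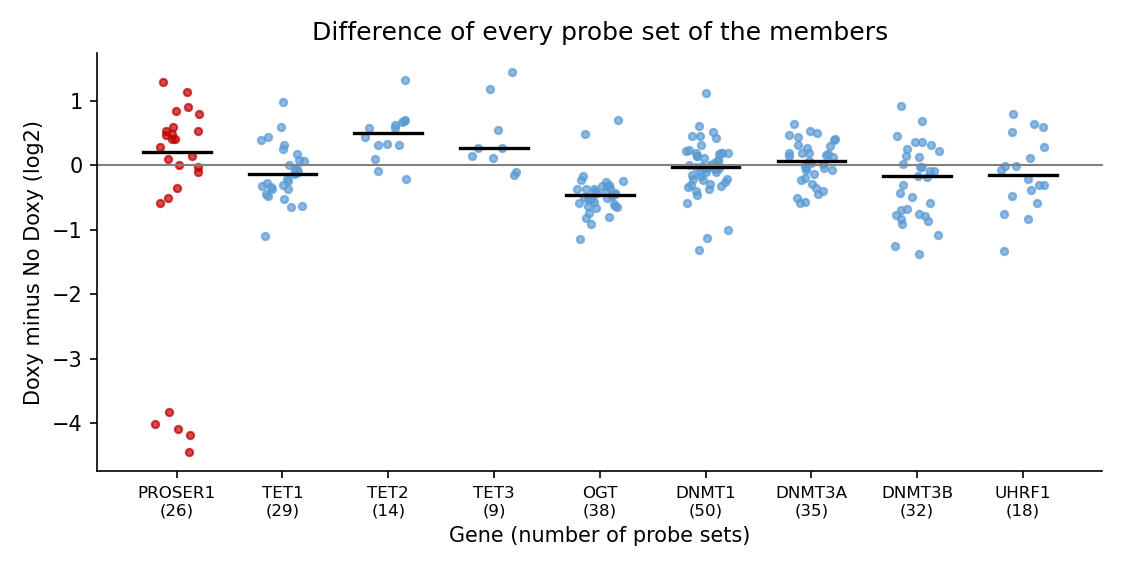
Difference of every probe set (group mean of Doxy minus No Doxy, log2) for the 9 members, with the number of probe sets of each gene in brackets and a black line at its median. The 5 low PROSER1 probe sets lie between -4.45 and -3.83, and the probe sets of the other genes between -1.38 and 1.44.

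In each gene the probe set farthest from the others was smaller in its difference than the 5 of PROSER1. In TET3, probe set 2489103 read 4.10 and 2.87 without Doxy and 5.12 and 4.74 with it, a difference of 1.44 where the others averaged 0.28. In TET2, probe set 2738156 read 4.79 and 4.55 against 5.79 and 6.17, or 1.31 where the others averaged 0.38. The groups did not overlap in either. TET1 (3249922, 0.98), DNMT3B (3882051, 0.92) and DNMT3A (2544704, -0.59) had smaller ones. In UHRF1, probe set 3817723 read 5.73 and 3.76 against 3.35 and 3.47, a difference of -1.34 in which the No Doxy arrays lay farther apart than the group means. In DNMT1, probe set 3850081 differed by -1.31, with 4.35 in Doxy 1 and 6.06 in Doxy 2 against 6.08 and 6.95.

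Genes that act with the TET enzymes and PROSER1 were taken from lists of their pathways. None of the 8 measured TET partners and O-GlcNAc genes was called (median difference 0.12, with 1.69% of all genes called lower and 5.67% higher). IDH1, which makes the oxoglutarate that TET enzymes need, was at 0.49 (limma, adjusted p = 0.173), CXXC5, a CXXC-domain protein that binds TET2, at 0.36 (adjusted p = 0.278) and OGA, which removes O-GlcNAc, at 0.26 (adjusted p = 0.448). Neither the enzyme that adds nor the one that removes this sugar passed the test.

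In the UTX and MLL3/4 complex, 2 of 8 measured genes rose and 0 fell (median 0.17), where 5.67% of all genes were called higher and 1.69% lower. KMT2C, its histone H3 lysine methyltransferase, read 6.51 and 6.64 without Doxy and 7.36 and 7.71 with it and rose by 0.96 (limma, adjusted p = 0.0283). NCOA6, a coactivator subunit, read 6.34 and 6.30 against 7.22 and 7.37 and rose by 0.98 (limma, adjusted p = 0.0203). As given above, 3 adjacent probe sets of it were lower. Both genes were higher in both Doxy arrays.

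Downstream of the TET enzymes, 0 of 8 base excision genes rose and 1 fell (median 0.12), again beside 5.67% and 1.69% of all genes. APEX1, the main abasic-site endonuclease, read 9.66 and 9.46 against 8.90 and 8.64 and fell by 0.79 (adjusted p = 0.0446). TDG, the glycosylase that excises oxidized methylcytosine, was at 0.70 (adjusted p = 0.0567). Of 5 measured methyl-CpG readers none was called (median 0.29). MBD1 was at 0.87 (adjusted p = 0.0727, and 0.0379 with centred arrays), ZBTB4 at 0.48 (adjusted p = 0.138) and MBD2 at 0.29 (adjusted p = 0.377). These are the 3 with the smallest p; 4 of the 5 readers were higher in both Doxy arrays, where 30.5% of all genes were, and the lowest difference was -0.18 (ZBTB33).

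Among 8 partners of the DNA methyltransferases, 1 fell (1.69% of all genes did) and none rose (median -0.16). CDCA7, which activates the remodeller HELLS, read 6.13 and 6.26 against 4.77 and 5.17 and fell by 1.23 (adjusted p = 0.0168), with both Doxy arrays low and Doxy 1 the lower; without Doxy 1 the difference was -1.03 with an adjusted p of 0.0518. Of 8 measured genes that supply the methyl donor S-adenosylmethionine, 1 fell, against the same 1.69%, and none rose (median -0.10). MTR, methionine synthase, read 7.35 and 7.39 against 6.68 and 6.62 and fell by 0.72 (adjusted p = 0.0435). Each group of MTR lay within 0.06.

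In the S phase list 2 of 26 genes fell, beside 1.69% of all genes, and none rose (median -0.43). CDC45, a helicase subunit, read 5.26 and 5.32 against 3.98 and 4.53 and fell by 1.04 (adjusted p = 0.0319), and POLA1, the catalytic subunit of DNA polymerase alpha, read 5.82 and 5.99 against 4.46 and 5.23 and fell by 1.06 (adjusted p = 0.0482). In both the Doxy 1 value was the lowest. The count became 9 with centred arrays, where 5.74% of all genes were called lower, and 4 with quantile normalization (3.66%). The median difference of the list was -0.01 without Doxy 1 and -0.88 without Doxy 2. In the G2/M list 0 of 24 genes were called (median -0.66). ASPM was at -1.21 (adjusted p = 0.0738), CCNB2 at -0.92 (0.101) and PLK1 at -0.90 (0.102), and 11 genes of the list were called lower with centred arrays and 4 with quantile normalization. Without Doxy 1 the median of the list was 0.02, with ASPM, CCNB2 and PLK1 at -0.67, -0.46 and -0.45. Without Doxy 2 the median was -1.35. All single-gene calls named here rest on both No Doxy arrays: limma called 0 of 16640 genes when either of them was left out (3077 and 2571 with an unadjusted p under 0.05). Without Doxy 1, APEX1, CDCA7, MTR, CDC45 and POLA1 also missed the threshold (limma adjusted p 0.0661, 0.0518, 0.0911, 0.0895 and 0.122), and without Doxy 2 so did KMT2C, NCOA6, APEX1, MTR and CDC45 (0.125, 0.0944, 0.184, 0.152 and 0.0540).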

How the data were processed

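RNA samples of 2 No Doxy and 2 Doxy arrays were hybridized to Affymetrix Human Exon 1.0 ST arrays. The authors deposited RMA log2 values per probe set (Expression Console, core exons), and the labels also name Partek 6.6. For Expression Console, version and genome build were not given in the sources used here. Values ran from 0.70 to 14.5. Of 287329 probe sets, 261273 had a single gene symbol, 9155 several and 16901 none; 2260 of 16941 symbols were updated to RefSeq names. Gene values were means over probe sets. Doxy was compared with No Doxy with limma 3.58.1 (R 4.3.3; lmFit, eBayes, diffSplice) over 16640 genes with Benjamini-Hochberg adjustment and a threshold of 0.05, and the code was tested on simulated data. The members and gene lists were chosen with earlier results of these data known. Named were all members, every PROSER1 probe set, each other member's farthest probe set, called listed genes or the 3 with the smallest p, the genes nearest to PROSER1 by Euclidean distance over the 4 arrays and those with the lowest single probe set. Alternatives were array centring, quantile normalization, other gene summaries, priors and filters, a replicate block, the methods' t-test and leaving out each array. Listed genes without a value were not analysed here.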

Additional observations from a re-analysis of the deposited data

How the results depend on the processing

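The number of methylation genes called on expression stayed at 0 of 8 under every alternative run. The number called on probe set use stayed at 0 except without No Doxy 1, where it was 1 (range 0 to 1 over left-out arrays). The PROSER1 gene difference of -0.51 was 0.22 by median polish, 0.060 by the median of probe sets, -0.67 with centred arrays, -0.35 without its most deviating probe set and 0.35 without the 5 adjacent probe sets, a setting chosen after seeing the data. These settings give the 5 low probe sets less weight or none, except centring, which moves every probe set. The most deviating probe set was at -4.61 with centred arrays. Over left-out arrays the gene difference ran from -0.62 to -0.40.

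DNMT1 turned from -0.05 to 0.0077 by the median of probe sets, and over left-out arrays it ran from -0.47 (without Doxy 2) to 0.37 (without Doxy 1), with 0.02 without No Doxy 1. DNMT3A turned from 0.04 to -0.12 with centred arrays, -0.10 with quantile normalization and ran from -0.035 (without Doxy 1) to 0.12 (without Doxy 2). UHRF1 turned from -0.13 to 0.014 by median polish, and ran from -0.63 (without Doxy 2) to 0.37 (without Doxy 1), with 0.16 without No Doxy 1. OGA turned from 0.26 to -0.10 by the median of probe sets. The cause was not tested. None of these values passed the test under any alternative.

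Over all genes, limma called 1226, against 1872 with centred arrays, 769 by median polish, 786 without the dimmest 25% of probe sets, 239 by the median of probe sets, 687 without Doxy 1, 157 without Doxy 2 and 0 without either No Doxy array. The methods' t-test called 0 after adjustment and 2327 before it. The diffSplice test called 409, against 891 with Simes adjustment, 999 with a term for each array, 36 without Doxy 1, 20 without Doxy 2 and 4013 without No Doxy 1. Equally numbered arrays share only a number: their deviations correlated at 0.126 over 2 pairs. With the replicate number as a block, limma called 2446 genes and 0 of the 8 members, and diffSplice 205 and 0. Of the named listed genes, APEX1, MTR, CDC45 and POLA1 lost their call by median polish (adjusted p 0.0582, 0.0515, 0.0618 and 0.0777) and by the median of probe sets (0.224, 0.144, 0.0741 and 0.124), KMT2C by the latter only (0.118), and APEX1, MTR and POLA1 without the dimmest 25% of probe sets (0.0795, 0.0708 and 0.0665).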

Other observations

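The genes whose 4 array values, centred on their mean, lay nearest to those of the PROSER1 gene value were CALHM2 (distance 0.014 log2 units over 4 arrays, difference -0.52), GPR155 (0.015, difference -0.50) and ART3 (0.018, difference -0.52). Since the PROSER1 gene value mixes 5 probe sets that were lower with 21 that on average were higher, the same measure was taken on the 21 alone, a choice made after seeing the data. The nearest genes were then RAP2C (distance 0.043, difference 0.38), MTM1 (0.047, difference 0.35) and HECTD4 (0.064, difference 0.32). With 4 arrays many genes share such a pattern.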
